A study of Mus musculus with 4 samples.

Results

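The genes described here were 8 genes of the acute-phase response, measured in skin: Hp, Saa3, Saa1, Lcn2, Orm1, C3, Cp and Serpina3n. They were taken by gene name from the array files, which gave 10 probes of 41174 and 8 of 28095 gene names, with a pair of probes each for Saa1 and C3. The list was drawn up with the difference between the genotypes on these same arrays known, so that difference is described for its members and not tested. The samples were whole back skin biopsies of mice at postnatal day 10 whose genetic background mixed 129Sv and C57BL/6. The cKO animals were Adam17flox/flox and carried the Krt14-Cre transgene, and their control littermates were Adam17flox/flox without it. There were 2 animals per genotype, 1 of each in litter 1 (replicate 1) and 1 of each in litter 2 (replicate 2). The keratin-14 promoter drives Cre in keratinocytes, so the other cells of a biopsy should have kept their Adam17 alleles, which was not measured here. The controls carried no Cre, so loss of ADAM17 and presence of Cre cannot be told apart. In whole skin, a change in the number of cells of a type and a change in RNA per cell cannot be told apart either.

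Acute-phase proteins are plasma proteins whose output rises or falls with inflammation and injury, mainly in the liver. Interleukin-6 acting through STAT3, and interleukin-1 and TNF acting through NF-kB and C/EBP factors, are the classic inducers of their genes. Many of them are also transcribed outside the liver, in epithelia, fat and macrophages. ADAM17 is the membrane protease that releases TNF, EGF receptor ligands and cytokine receptors from the cell surface.

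Each value is the log2 of the processed Cy3 signal minus the 75th percentile of that array, so that 0 is the brightness of the 75th percentile and 1 unit is a doubling. A difference is cKO minus control, and its standard error (SE) comes from the 2 arrays of each genotype. The 4 arrays held 43379 gene spots each, of which 53.7% to 56.6% were well above background by the scanner software's own flag and 0 were saturated. The lowest signal that carried the flag was between 25.9 and 34.5 on the 4 arrays. Adam17 itself read -0.14 and -0.12 in cKO skin, against 0.44 and 0.37 in control skin, which left 69.0% of the control level (difference -0.54, adjusted p = 0.114 by limma). The sources used here do not say which bases of Adam17 the deletion removes, so its probes do not settle how complete it was.

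The probes are shown because they fix what each value measures, and because the paired probes of Saa1 and of C3 gave unlike readings. Positions are given in mm9, as in the array files, and were not set against an exon annotation. Each probe is 60 bases long. The mm9 placement spans 473 bases for the other Saa1 probe, 245 for Lcn2, 608 for Orm1 and 158 for the other C3 probe, so these do not lie in 1 unbroken stretch of the genome. The Serpina3n probe lies at chr12:105651918-105651977 on the plus strand.
Hp, chr8:112099172-112099231, minus strand: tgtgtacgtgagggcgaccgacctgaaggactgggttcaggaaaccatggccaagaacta
Saa3, chr7:53968031-53968090, minus strand: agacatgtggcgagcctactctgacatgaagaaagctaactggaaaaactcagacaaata
Saa1, main probe, chr7:53996070-53996129, minus strand: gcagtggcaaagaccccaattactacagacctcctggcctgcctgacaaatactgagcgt
Saa1, other probe, chr7:53996167-53996639, minus strand: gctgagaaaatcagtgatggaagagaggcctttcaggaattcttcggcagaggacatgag
Lcn2, chr2:32241037-32241281, minus strand: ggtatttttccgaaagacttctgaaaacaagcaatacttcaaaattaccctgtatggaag
Orm1, chr4:63006483-63007090, plus strand: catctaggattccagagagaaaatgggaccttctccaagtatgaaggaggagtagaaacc
C3, main probe, chr17:57343416-57343475, minus strand: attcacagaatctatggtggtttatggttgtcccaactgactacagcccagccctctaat
C3, other probe, chr17:57364538-57364695, minus strand: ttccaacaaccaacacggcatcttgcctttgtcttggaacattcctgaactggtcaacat
Cp, chr3:19889075-19889134, plus strand: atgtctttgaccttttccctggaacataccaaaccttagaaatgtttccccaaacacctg

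Haptoglobin, encoded by Hp, binds free haemoglobin in plasma. Hp read 6.55 and 6.56 in cKO skin, against 5.05 and 5.32 in control skin. The cKO arrays were nearly equal and both lay more than 1 log2 unit above both control arrays. The difference was 1.37 ± 0.14 (SE, n = 2 per genotype), a 2.59-fold higher level in cKO skin, with 1.51 in litter 1 and 1.24 in litter 2. In unscaled terms the processed signal was 72509 and 73146 in cKO skin, against 24807 and 31307 in control skin. All 4 of these spots were bright enough for the scanner software to take them from its low-gain scan, and none was flagged as saturated.

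Ceruloplasmin, encoded by Cp, carries copper in plasma and oxidises iron. Cp read 0.15 and -0.37 in cKO skin, against -0.19 and -0.94 in control skin. The cKO array of litter 2 lay below the control array of litter 1, so the genotypes overlapped. Within litters the cKO animal was higher by 0.35 in litter 1 and by 0.57 in litter 2, and over all arrays the difference was 0.46 ± 0.45 (SE, n = 2 per genotype). That error takes in the spread between litters, and the SE of the 2 within-litter differences was 0.11.

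Orm1 encodes orosomucoid 1, a plasma glycoprotein that binds small hydrophobic molecules. Orm1 read -1.92 and -1.86 in cKO skin, against -1.95 and -2.22 in control skin. In litter 1 the animals differed by 0.02 and in litter 2 by 0.35, and the difference over all arrays was 0.19 ± 0.14 (SE, n = 2 per genotype). The groups did not overlap, but by a margin that litter 1 made very small. Its paralogue Orm2, a nearby gene on chromosome 4 in the files, gave a similar picture, with -1.71 and -1.66 in cKO skin against -1.74 and -1.95 in control skin (difference 0.15, adjusted p = 0.554 by limma). Whether the probes of Orm1 and Orm2 pick up each other's transcripts was not tested.

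Serum amyloid A proteins are apolipoproteins of high-density lipoprotein, and in the mouse Saa3 is the form known for being made outside the liver. The Saa3 probe had processed signals of 172 and 155 in cKO skin, against 33.3 and 22.8 in control skin. It was well above background on both cKO arrays and on neither control array. On the log2 scale it read -2.17 and -2.33 in cKO skin, against -4.49 and -5.10 in control skin, so the genotypes were well apart. The control signals did not carry the flag. Each control array was therefore taken at the Saa3 signal or at its lowest well-above-background signal, whichever was higher. On that basis the level in cKO skin was 4.96-fold higher. That value is not a strict minimum. In the control of litter 1 the Saa3 signal, 33.3, lay above that array's lowest flagged signal, 25.9, yet was not flagged. The measured values differed by 2.55 ± 0.31 (SE, n = 2 per genotype), with 2.33 in litter 1 and 2.77 in litter 2. The processed signal is already background-subtracted. The normexp alternative instead removed background from the mean spot signal and added an offset of 50 before the log. That offset is above the processed Saa3 signal of either control array, and the difference there was 1.55.

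Saa1 encodes a major form secreted by the liver in the acute phase. Its main probe read -1.26 and -1.43 in cKO skin, against -1.73 and -1.96 in control skin. The genotypes did not overlap, and the difference of 0.50 ± 0.14 (SE, n = 2 per genotype, 1.42-fold) was nearly alike in the litters, at 0.47 in litter 1 and 0.53 in litter 2. The other Saa1 probe was not well above background on any array, with processed signals of 24.6 and 23.8 in cKO skin, against 10.8 and 14.8 in control skin, so no fold is given for it. The probe for Saa2, the closest paralogue, was not well above background on any array either, with signals of 30.7 and 31.5 in cKO skin, against 6.24 and 8.10 in control skin. In both of these dim probes the cKO arrays were above the control arrays. The software also has a weaker flag, for a signal that is positive and significant against background. The other Saa1 probe carried it on 4 arrays and the Saa2 probe on 3. The 2 probes of Saa4, the constitutive form, had signals between 6.33 and 13.2 in cKO skin and between 6.26 and 8.04 in control skin, none well above background. The annotation table used here lists Saa2 among the older names of Saa1, and whether probes of this family bind each other's transcripts was not tested.

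**Figure D1:**
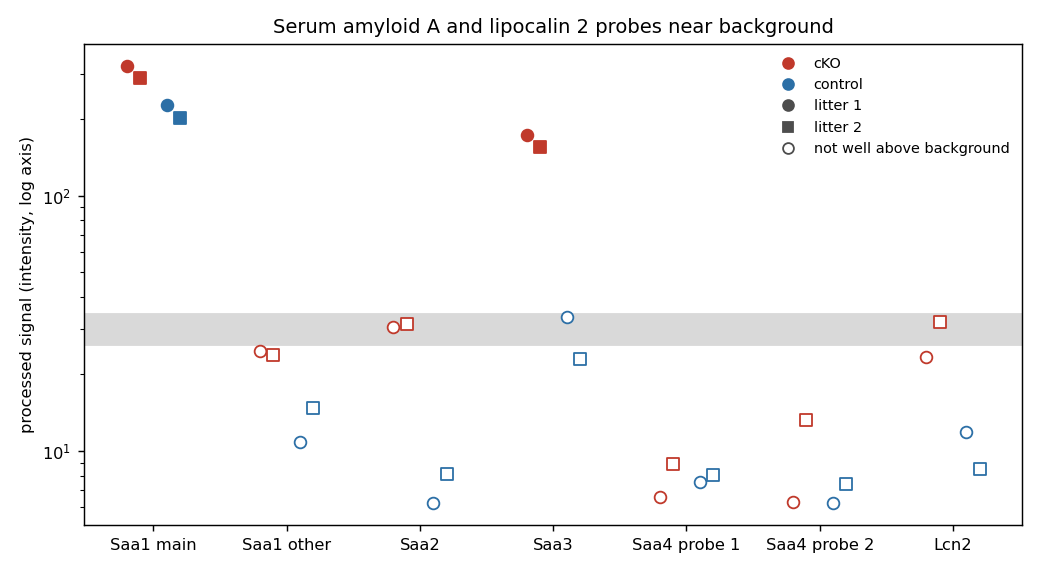
Processed signal (intensity, log axis) of each serum amyloid A and lipocalin 2 probe on the 4 arrays, cKO left of control within each probe, circles for litter 1 and squares for litter 2, filled where the signal was well above background. The grey band is the range over arrays of the lowest well-above-background signal, 25.9 to 34.5; the main Saa1 probe is filled on all arrays and Saa3 on the cKO arrays, at 172 and 155, while the other probes are open on all 4 arrays.

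Lipocalin 2, encoded by Lcn2, binds bacterial siderophores and so withholds iron. Its single probe had processed signals of 23.3 and 32.0 in cKO skin, against 11.9 and 8.51 in control skin. The cKO signals were the higher ones in both litters, but the probe was well above background on 0 of 4 arrays. Lcn2 therefore did not pass the filter on low values, and its level is uncertain in both genotypes. It carried the weaker flag on both cKO arrays and on the control array of litter 1, but not on that of litter 2. On the log2 scale the values were -5.05 and -4.60 in cKO skin, against -5.98 and -6.52 in control skin, and no fold is given.

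C3 encodes the central component of complement, which all activation routes cleave. Its main probe was printed on 10 spots of every array, which shows the technical spread directly. The spots ranged from 4103 to 4950 in the cKO animal of litter 1 and from 6038 to 7555 in that of litter 2, against 1600 to 1905 in the control of litter 1 and 1451 to 1790 in that of litter 2. No spot of a cKO array fell within the range of the control arrays, and the cKO arrays did not overlap each other. The SD between spots was 0.083 and 0.089 log2 units on the cKO arrays, against 0.077 and 0.081 on the control arrays, which is well below the gap between the 2 cKO animals. The array means were 2.56 and 3.14 in cKO skin, against 1.22 and 1.06 in control skin, a difference of 1.71 ± 0.30 (SE, n = 2 per genotype) or 3.27-fold, with 1.34 in litter 1 and 2.08 in litter 2. The other C3 probe was at background everywhere, with signals of 5.48 and 7.15 in cKO skin, against 5.28 and 6.52 in control skin, and its spots were not above 0 beyond their error on any array. The difference in C3 therefore rests on 1 probe sequence.

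**Figure D2:**
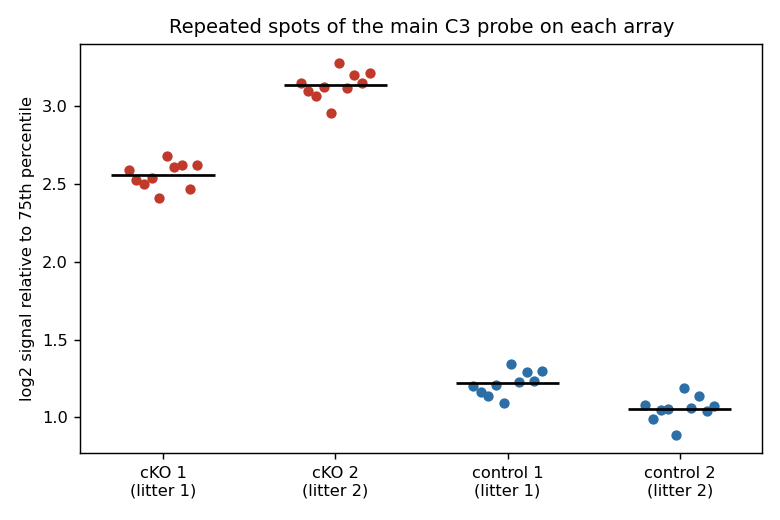
Log2 signal of the 10 spots of the main C3 probe relative to the 75th percentile of each array, with the array mean as a bar, cKO arrays left of control arrays. The means are 2.56 and 3.14 for cKO skin and 1.22 and 1.06 for control skin, and spots of the cKO arrays and of the control arrays do not overlap.

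Serpina3n encodes a secreted serine protease inhibitor, a mouse counterpart of human alpha-1-antichymotrypsin. Serpina3n read -0.75 and -2.43 in cKO skin, against -2.52 and -3.38 in control skin. The cKO animal of litter 1 stood far above the other 3 animals, and the cKO animal of litter 2 lay only 0.09 above the control of litter 1. The difference was 1.36 ± 0.94 (SE, n = 2 per genotype), the largest such error among the members, with 1.77 in litter 1 and 0.96 in litter 2 (SE of these 2 differences 0.41). Without cKO replicate 1 it was 0.53.

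**Figure D3:**
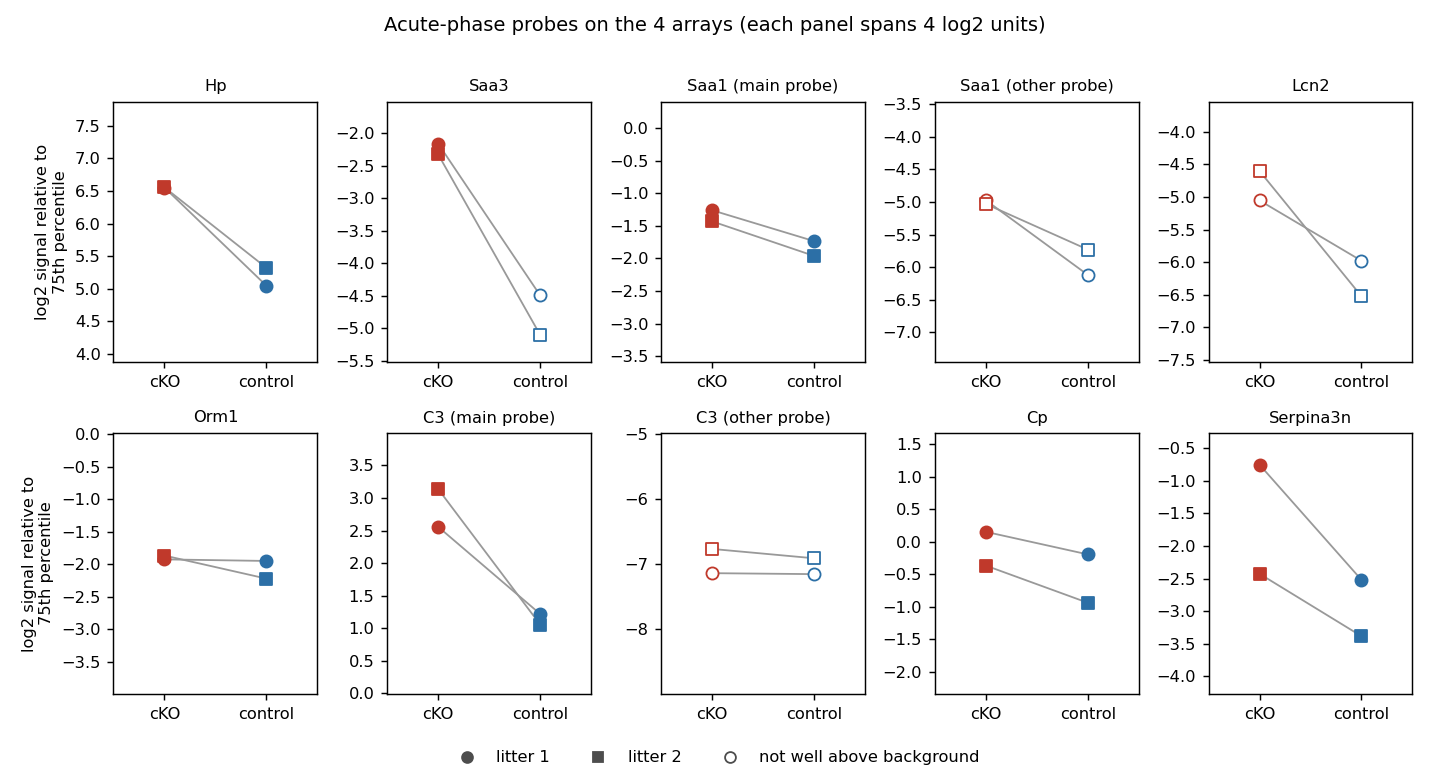
Log2 signal relative to the 75th percentile for the 10 acute-phase probes on the 4 arrays, cKO left of control, circles and squares for litters 1 and 2 joined within a litter, open symbols where the probe was not well above background. Every panel spans 4 log2 units; Saa3 and C3 show the widest gaps among probes measured in cKO skin, Cp and Orm1 narrow ones, and Serpina3n a spread between the cKO animals wider than the gap between genotypes.

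**Figure D4:**
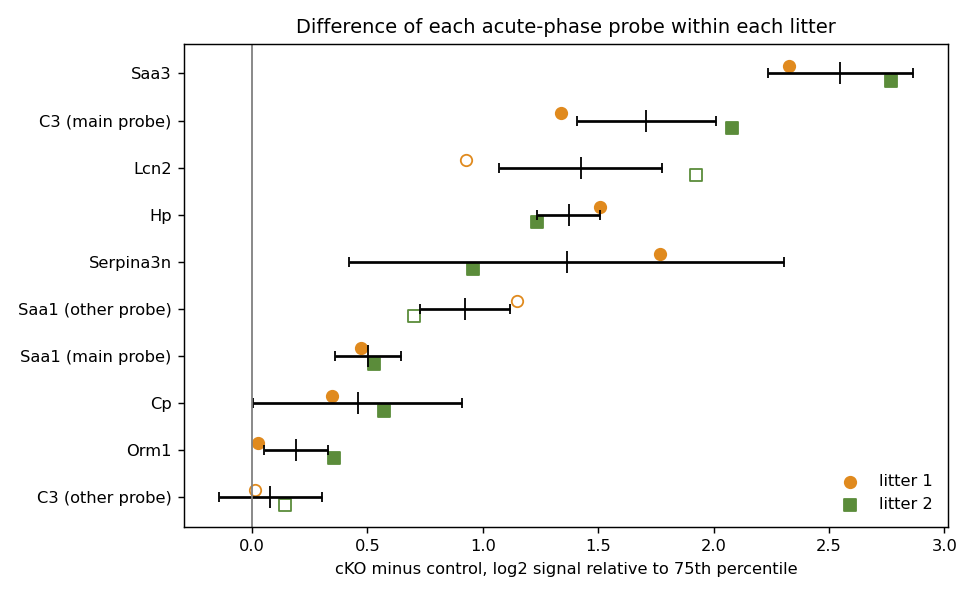
Difference between the cKO and control animal of the same litter for the 10 acute-phase probes, in log2 units, with circles for litter 1 and squares for litter 2; the upright tick is the mean of both and the bar its SE over the 2 arrays of each genotype. Open symbols mark probes well above background on no array; all 20 differences lie at or above 0, from 0.01 for the other C3 probe to 2.77 for Saa3.

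Side by side, 7 of the 8 members passed the filter on low values, Lcn2 being the exception, and Saa3 passed it through its cKO arrays alone. All 7 were higher in the cKO animal of both litters, and in 6 of them, Cp being the exception, both cKO arrays lay above both control arrays. Of all 15552 genes tested, 28.0% met that last condition. None of the 7 was among the genes called at an adjusted p below 0.05, which were 0.341% of all genes, 0.0707% higher and 0.270% lower in cKO skin, or 53 genes by limma (2512 at an unadjusted p below 0.05). With quantile normalisation 2 of the 7, Hp and Saa3, were among 80 called genes. Because the members were picked on this contrast, nothing is read from these counts. The median difference of the 7 was 1.36, with 1.34 in litter 1 and 0.96 in litter 2, beside 0.03 over all genes. That median is the value of Serpina3n, and without cKO replicate 1 it was 0.53.

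The litter contrast was not used to choose the members, and genotypes were balanced over litters, so litter 2 against litter 1 could be tested with genotype in the model. Of 15552 genes 0 (0.00%) passed by limma, and 2501 had an unadjusted p below 0.05. None of the 7 members passed, with adjusted p between 0.246 and 0.650. Cp had the smallest p, averaging -0.65 in litter 2 and -0.02 in litter 1, a difference of -0.63 ± 0.09 (SE of the limma fit, adjusted p = 0.246 by limma). It was the 1 member with both litter 2 arrays below both litter 1 arrays, which 16.8% of all genes had, and 0 members had both above, against 20.4% of all genes. Serpina3n averaged -2.90 in litter 2 and -1.63 in litter 1, a difference of -1.27 ± 0.24 (SE of the limma fit, adjusted p = 0.255 by limma), with -1.67 between the cKO animals and -0.86 between the controls. The SE of the limma fit borrows spread from all genes. From the arrays of the gene alone, the SE was 0.41 for Serpina3n and 0.11 for Cp. Hp differed by 0.14 between litters (adjusted p = 0.514 by limma), and C3 by 0.21 (adjusted p = 0.646). The median over the 7 was -0.20, beside 0.01 over all genes. Whether the difference between genotypes itself differed between litters could not be tested with 1 animal per genotype and litter.

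Upstream sequence is shown because the members share known classes of inducing factor. RefSeq windows of the 250 bases before the transcription start, in GRCm38.p6, were matched for 6 of the 8 members (Saa3, Saa1, Lcn2, C3, Cp and Serpina3n), with a pair of windows for Cp. Capitals mark matches on either strand to a C/EBP-type motif, TTGCNNAA, or an NF-kB-type motif, where N is any base. The NF-kB-type motif was GG, any 3 bases, TT, any base and CC. A STAT-type motif, TTCNNNGAA, was also searched. These letters were chosen with the sequences at hand, and a match describes the window and does not show that a factor binds there.
Saa3, chr7:46715677-46715926, minus strand: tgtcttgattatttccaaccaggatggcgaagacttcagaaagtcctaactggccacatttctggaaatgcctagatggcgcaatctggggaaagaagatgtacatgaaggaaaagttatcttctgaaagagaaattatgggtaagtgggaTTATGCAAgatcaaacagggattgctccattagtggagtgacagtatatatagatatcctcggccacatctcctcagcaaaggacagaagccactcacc
Saa1, chr7:46742981-46743230, minus strand: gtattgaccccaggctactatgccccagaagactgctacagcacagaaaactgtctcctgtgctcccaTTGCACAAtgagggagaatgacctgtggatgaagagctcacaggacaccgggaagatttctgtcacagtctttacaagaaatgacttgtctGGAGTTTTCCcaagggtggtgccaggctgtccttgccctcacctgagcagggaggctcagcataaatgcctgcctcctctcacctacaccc
Lcn2, chr2:32387740-32387989, minus strand: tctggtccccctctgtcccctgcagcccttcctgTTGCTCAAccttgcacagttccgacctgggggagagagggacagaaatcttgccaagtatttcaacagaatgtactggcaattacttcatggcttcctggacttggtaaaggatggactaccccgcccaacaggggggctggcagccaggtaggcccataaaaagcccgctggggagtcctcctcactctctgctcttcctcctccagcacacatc
C3, chr17:57228137-57228386, minus strand: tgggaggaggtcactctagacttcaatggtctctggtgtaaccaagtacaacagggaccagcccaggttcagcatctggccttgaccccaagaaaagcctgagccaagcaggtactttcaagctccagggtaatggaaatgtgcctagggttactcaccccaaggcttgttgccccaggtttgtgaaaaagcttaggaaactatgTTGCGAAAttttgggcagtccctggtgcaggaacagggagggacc
Cp, chr3:19956999-19957248, plus strand: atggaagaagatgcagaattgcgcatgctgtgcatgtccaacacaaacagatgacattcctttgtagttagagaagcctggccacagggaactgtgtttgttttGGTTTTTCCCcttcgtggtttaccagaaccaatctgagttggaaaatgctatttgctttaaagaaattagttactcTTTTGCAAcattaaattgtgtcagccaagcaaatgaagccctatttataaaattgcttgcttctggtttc
Serpina3n, chr12:104406458-104406707, plus strand: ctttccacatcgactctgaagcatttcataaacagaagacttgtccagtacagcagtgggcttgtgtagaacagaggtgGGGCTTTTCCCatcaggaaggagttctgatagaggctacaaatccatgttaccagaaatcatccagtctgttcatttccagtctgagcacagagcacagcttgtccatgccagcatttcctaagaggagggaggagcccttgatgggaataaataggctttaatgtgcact

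A C/EBP-type match stood in the windows of 5 of these 6 members. Its first base lay 45 bases before the start in C3, 70 in Cp, 99 in Saa3, 182 in Saa1 and 216 in Lcn2. Among all 32851 windows of the same length, 9.56% held such a match. The window of Serpina3n held none. Of the pair of Cp windows the second is printed, and the first held no C/EBP-type, NF-kB-type or STAT-type match. The shares over all windows are per window, whereas Cp had a pair of windows in which to match. The letters were chosen with the sequences at hand, so the members' counts were not tested against these shares. An NF-kB-type match stood in Saa1 at 91 bases, in Cp at 146 and in Serpina3n at 171 and 170, where a pair of matches overlap, and 13.0% of all windows held one. The STAT-type letters were found in none of the members' windows and in 7.02% of all windows. Over the upstream bases, Saa1 and Saa2 were identical at 238 of 251 aligned columns (94.8%), and the Saa2 window held a C/EBP-type match at 183 bases and no NF-kB-type match. Saa1 and Saa3 were identical at 50.9% of aligned columns.

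Other genes whose products rise in the acute phase were taken from a further list. It was drawn up with earlier results of these data known, so it is not independent of them. Of 27 on the array, 16 were measured and none passed in either direction by limma, with a median difference of 0.37 beside 0.03 over all genes. Both cKO arrays lay above both control arrays in 10 of the 16, a condition met by 28.0% of all genes, and below them in 2, as in 21.4% of all genes. The smallest p belonged to the metallothionein Mt1, a metal-binding protein, at 4.58 and 4.49 in cKO skin against 3.71 and 3.78 in control skin (difference 0.79, adjusted p = 0.0689), and to Hpx, which encodes the haem-binding protein hemopexin. Hpx was well above background in cKO skin alone (adjusted p = 0.0712 by limma). With the control arrays taken at their lowest well-above-background signal, Hpx was 1.56-fold higher in cKO skin. The median of this list was 0.15 when dim probes were kept in. Another 10 genes of the list were not well above background on any array: Saa2, Saa4, Crp, Apcs, Fga, Fgb, Fgg, Itih3, A2m and Hamp.

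Genes whose products fall in the acute phase gave 3 measured members of 9, none past the threshold. Their median difference was 0.39, close to the 0.37 of the genes whose products rise, beside 0.03 over all genes. Both cKO arrays lay above both control arrays in 2 of the 3, a condition met by 28.0% of all genes. Trf, encoding transferrin, the iron carrier of plasma, read 2.19 and 2.15 in cKO skin against 1.78 and 1.08 in control skin (adjusted p = 0.285 by limma). Rbp4, which carries retinol, differed by 0.39 (adjusted p = 0.428). The other 6, Alb, Ttr, Ahsg, Apoa1, Apoa2 and Serpina6, were not well above background on any array.

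Of the cytokines and receptors that induce acute-phase genes, 20 of 26 on the array were measured and none passed by limma. The smallest p belonged to Il11ra1, a receptor chain for interleukin-11, with a difference of -0.52 (adjusted p = 0.146), and to Tlr2, a receptor for bacterial lipoproteins, with 0.56 (adjusted p = 0.165). Il6, Osm, Il17a, Il22, Il22ra1 and Ifng were not well above background on any array. Of the transcription factors and feedback regulators of these routes 24 of 27 were measured and none passed. Both cKO arrays lay above both control arrays in 11 of these 24, and in 8 of the 20 cytokines and receptors (28.0% of all genes). They lay below them in 2 and in 4 (21.4% of all genes). Zc3h12a, an RNase that degrades inflammatory transcripts, differed by 0.51 (adjusted p = 0.179), and Nfkbia, the inhibitor that NF-kB itself induces, by 0.57 (adjusted p = 0.187). The median was 0.12 over the cytokines and receptors and 0.11 over the factors, the last of which was -0.01 with normexp background removal.

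Complement genes other than C3 gave 22 measured of 32. By limma 0 were called higher and 1 was called lower, beside 0.0707% and 0.270% of all genes. Both cKO arrays lay above both control arrays in 8 of the 22 (28.0% of all genes) and below them in 2 (21.4% of all genes). Clu, encoding clusterin, a secreted chaperone that inhibits the terminal complement complex, fell to 4.01 and 3.90 in cKO skin, against 5.15 and 5.15 in control skin (difference -1.19, 0.437-fold, adjusted p = 0.0419 by limma). Its difference stayed between -1.40 and -1.13 under every alternative run, but the call was lost with litter as a block, with normexp, with no filter on dim probes and when any 1 of the 4 animals was left out. C4b, the component that follows C1 and lectin activation, read 1.76 and 1.63 in cKO skin against 0.80 and 0.55 in control skin, a difference of 1.02 that did not pass (adjusted p = 0.0778). Cfb, factor B of the alternative route, differed by 0.70 (adjusted p = 0.101). The list's median was 0.20, or 0.41 without control replicate 1 and 0.07 without control replicate 2.

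Partners of haptoglobin, ceruloplasmin and lipocalin 2 in the handling of iron, haem and siderophores gave 20 measured of 21, none past the threshold, with a median of 0.05 (below 0 with normexp, with probes averaged, or without cKO replicate 2). Lrp2, an endocytic receptor that takes up lipocalin 2 among many ligands, was not well above background in cKO skin (adjusted p = 0.0951 by limma). With the cKO arrays taken at their lowest well-above-background signal, Lrp2 was 2.08-fold lower in cKO skin. Hmox1, the haem-degrading enzyme, differed by -0.54 (adjusted p = 0.145), and Slc22a17, described as a lipocalin 2 receptor, by -0.44 (adjusted p = 0.200).

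**Figure D5:**
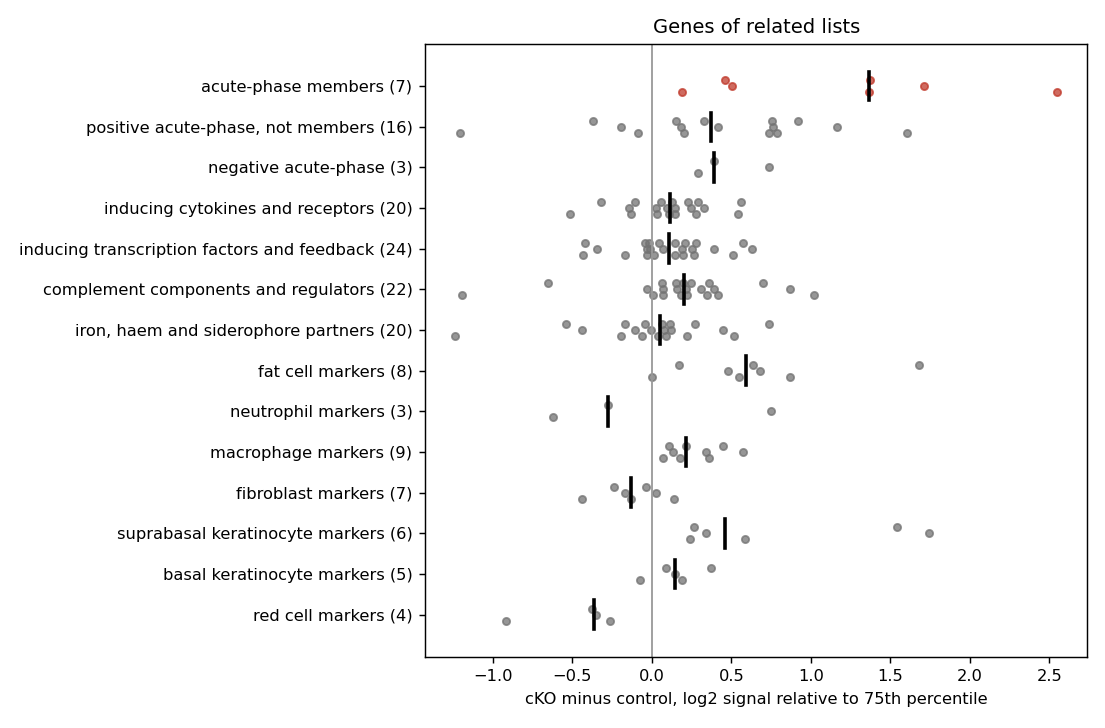
Difference between cKO and control skin for each measured gene of the acute-phase members (red) and of 13 related or cell-type lists (grey), in log2 units relative to the 75th percentile, with the list's median as a bar and the number measured in brackets. The members were chosen on this difference, with a median of 1.36; the grey lists have medians between -0.36 and 0.59, and of their genes Clu alone passed the test.

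Markers of cells that could be the source of these transcripts were read on the same arrays, and their part in the members' differences was not tested. All 7 hepatocyte markers on the array (Alb, Apoa2, Ttr, Fgb, Apoh, Ahsg and Cyp2e1) were not well above background on any array. Their summed signal, in units of the 75th percentile, was 0.0793 and 0.165 in cKO skin, against 0.0995 and 0.0964 in control skin. All 8 fat cell markers were measured, and 6 had both cKO arrays above both control arrays (28.0% of all genes), Fabp4 and Lep being the exceptions. The median of the 8 was 0.59, or 0.35 with normexp. The summed signals were 398 and 369 in cKO skin against 344 and 254 in control skin. Retn, the adipokine resistin, was 0.50 and 0.71 in cKO skin against -0.92 and -1.23 in control skin (adjusted p = 0.0534 by limma). Cidec, a lipid droplet protein, differed by 0.64 (adjusted p = 0.0951 by limma). All 6 suprabasal keratinocyte markers had both cKO arrays above both control arrays (28.0% of all genes). The median of the 6 was 0.46, or 0.20 with normexp, and the summed signals were 757 and 896 in cKO skin against 630 and 624 in control skin. Krt1, a keratin of the spinous layer, differed by 1.74 (adjusted p = 0.127), and Flg, the barrier protein filaggrin, by 1.54 (adjusted p = 0.129).

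Of 9 neutrophil markers on the array, 3 were measured (S100a8, S100a9 and Camp), and Ngp, Ltf, Retnlg, Mmp8 and Csf3r were not well above background on any array. The summed signal of the 9 was 2.96 and 2.30 in cKO skin, against 3.26 and 3.67 in control skin. S100a8 and S100a9 were far brighter than Camp on every array, so the sum mostly follows that pair. The 3 measured genes had a median of -0.27, which was 0.00 with no filter on dim probes. Camp, encoding the antimicrobial peptide cathelicidin, differed by 0.75 (adjusted p = 0.309 by limma), and S100a9, a subunit of calprotectin, by -0.62 (adjusted p = 0.385). All 9 macrophage markers were measured, with a median of 0.21 (-0.02 without control replicate 2) and summed signals of 30.2 and 27.1 in cKO skin against 26.2 and 16.9 in control skin. Lyz2, the lysozyme of myeloid cells, differed by 0.57 (adjusted p = 0.358), and Cd68, a lysosomal protein of macrophages, by 0.18 (adjusted p = 0.435). The 7 fibroblast markers had a median of -0.13, above 0 without cKO replicate 2 or without control replicate 1, and Pdgfra and Col1a2 had the smallest p (adjusted p = 0.580 and 0.661). The 5 basal keratinocyte markers had a median of 0.14, which was -0.13 with normexp. Of these 5, 4 had both cKO arrays above both control arrays (28.0% of all genes), Krt15 being the exception. Col17a1 and Krt14 had the smallest p (adjusted p = 0.319 and 0.386 by limma). Red cell markers, whose globins are what haptoglobin binds, had a median of -0.36 over 4 measured genes. That median was -0.72 without cKO replicate 1, -0.61 without control replicate 2, -0.14 without control replicate 1 and near 0 without cKO replicate 2. The smallest p belonged to Slc4a1, the anion exchanger of the red cell membrane, at -0.92 (adjusted p = 0.0582), and to Hba-a1, a globin gene, at -0.37 (adjusted p = 0.607). None of the cell-type markers passed the test.

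Among the genes outside all lists whose 4-array profile lay closest to the median profile of the 7 members were Calm5, Myh1, S100a4 and Klb. Likeness was the root mean square distance over the 4 arrays after each gene's mean was taken off, and for these 4 genes it was between 0.0707 for Calm5 and 0.0926 for Klb. Among the members themselves it was between 0.173 for Saa1 and 0.889 for Saa3. With 4 arrays many genes can lie this close. Calm5, a gene of the calmodulin family, read 0.38 and 0.12 in cKO skin against -0.46 and -0.70 in control skin. The 4 genes were higher in cKO skin by 0.68 to 0.83, a difference that follows from how they were chosen and is not tested.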

How the data were processed

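Cy3-labelled RNA of back skin was hybridised to Agilent whole mouse genome arrays (design 014868, 1 colour, 4 arrays), per the file headers and the labels. Slide and scan time were shared by all arrays, so neither could be tested as a batch. The scanner software was Feature Extraction, version 10.5 per the submitters' processing notes and 10.7.3.1 per the file headers. The deposited scanner files hold intensity per spot, of which the authors' processed signal (background-subtracted) was used, with its flags. The authors' deposited series table holds log2 values and was an alternative. It followed the scanner values with r of at least 0.99999 once each probe's median was removed.

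From these, the log2 processed signal was taken and the 75th percentile of the array's gene spots (a signal of 751 to 784) was subtracted. Spots of a probe were averaged, without control spots or the 51 to 66 outlier-flagged spots per array. A probe was kept if both arrays of 1 genotype or more were well above background (22190 of 41174). The probe with the highest mean represented a gene, giving 15552 genes. Names were updated to RefSeq by accession for 26682 probes, by symbol for 5195 and by synonym for 951, and 8346 kept the name in the files.

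Tests used lmFit and eBayes of limma 3.58.1 under R 4.3.3 (two-sided, Benjamini-Hochberg over all genes, threshold 0.05), with 2 residual and 2.37 prior degrees of freedom between genotypes. The litter fit, with genotype as a term, left 1 residual degree of freedom. Replicate numbers pair animals by litter, per the labels, and deviations from the genotype means correlated across genes at 0.35 (Spearman 0.43), genes not being independent replicates. The p-values rest on the spread between 2 animals per genotype, together with spread that limma borrows from all genes. With so few animals their precision is limited. The main fit between genotypes did not use the pairing by litter.

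The members and all lists were chosen with earlier results of these data known. Named genes were the members, Adam17, of each list those past the threshold or, with none, the 2 with the smallest p, and the 5 nearest profiles, of which 1 is not reported here. Paralogues and further genes named beside these were chosen after their values were seen. Alternatives were litter as a block, quantile normalisation, normexp (offset 50), the series table, no filter, probes averaged, outlier spots kept and each animal left out.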

Additional observations from a re-analysis of the deposited data

How the results depend on the processing

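The 53 genes called between genotypes (11 higher and 42 lower in cKO skin) became 80 with quantile normalisation (23 higher and 57 lower). Hp and Saa3 were among the 80, from which nothing is read, as the members were picked on this contrast. By limma, 0 passed with litter as a replicate block (3706 at an unadjusted p below 0.05), 0 with normexp (423) and 0 with no filter on dim probes (2079). Leaving out 1 animal gave 0 to 38 calls, with 24 without cKO replicate 2 and 0 without either control (1842 and 1750 at an unadjusted p below 0.05). The median difference of the members, 1.36, was 1.07 with normexp and 0.53 to 1.37 with 1 animal left out, lowest without cKO replicate 1. No member's difference changed sign under the 11 alternatives, over which Hp ranged from 1.07 to 1.51, Saa3 from 1.55 to 2.85, Saa1 from 0.39 to 0.66, Orm1 from 0.05 to 0.49, C3 from 1.41 to 2.00, Cp from 0.09 to 0.83 and Serpina3n from 0.53 to 2.20. Among the related lists, the 1 call (Clu) became 2 with quantile normalisation (Clu and Retn) and 0 with the block, normexp or no filter. It was 0 to 1 with 1 animal left out, the 1 being Krt1 without cKO replicate 1. Between litters, the count of 0 became 14 with normexp, and the members' median of -0.20 became -0.060. The other alternatives for litters gave 0 calls, the fit without genotype as its replicate block among them, and no animal could be left out of that fit. The cause of these changes was not tested, beyond the larger number of genes tested without the filter and the fewer animals in the leave-one-out fits. Signal over background limits Saa3 in control skin, and Lcn2, Saa2, the other Saa1 probe and the other C3 probe in both genotypes.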
